A study of Homo sapiens with 4 samples.

Results

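Expression of 34 genes that encode acute-phase proteins, complement components and complement regulators was examined in 2 lung adenocarcinoma (LAD) cell lines, with and without a constitutively active AKT1. The genes were taken by symbol from a list, matched to Ensembl identifiers through GENCODE, and all 34 were among the 60558 identifiers of each library. The list was chosen by earlier results of the same comparison, the ratios of myr-AKT1 to vector in these libraries, so their differences between myr-AKT1 and vector are given as a description, without a test. Total RNA of the established LAD lines A549 and HCC827 had been sequenced as 4 strand-specific libraries, called A549-vector and A549-myr-AKT1 in the A549 line and HCC827-vector and HCC827-myr-AKT1 in the HCC827 line. The myr-AKT1 cells had been transduced with an AKT1 construct bearing a myristoylation signal, which holds the kinase at the membrane, and the vector cells were their controls in the same line. All lines were grown in the same serum-supplemented medium, and whether the transduced cells were a pool or a clone is not given in the sources used here. Each condition was sequenced once, so no difference has a replicate check, and counting intervals leave out the variation between cultures.

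The acute-phase response is the change in plasma proteins that follows infection or injury. IL-6, acting through STAT3, and IL-1, acting through NF-κB, together with C/EBP factors, drive it mainly in hepatocytes, although airway epithelial cells also make several of these proteins. Complement is a cascade of plasma proteases and their substrates. The classical pathway (C1R, C1S, C2, C4) and the alternative pathway (CFB, CFD) meet at C3, and soluble and membrane regulators keep the cascade from running on host cells.

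The values are the deposited normalised counts, which are read counts divided by a size factor that the authors set within each line. Whole reads were recovered from them, with totals of 16322183 to 33530317 reads per library. A log2 ratio compares the normalised count with myr-AKT1 to that with vector in the same line, and its 95% interval in brackets is a Clopper-Pearson interval for counting error only. A gene was called higher or lower when its log2 ratio passed 1 or -1 and the interval excluded 0, among genes with at least 20 reads summed over the pair. AKT1 itself, including reads of the construct, had 6297 against 4243 normalised counts in A549 cells and 4805 against 2175 in HCC827 cells, with log2 ratios of 0.57 and 1.14. Of 10 lung epithelial markers, 7 to 9 had at least 20 reads in each library, with NKX2-1 at 8 and 0 reads in the A549 libraries and SFTPC, the surfactant protein of alveolar type II cells, at 0 in all 4 libraries. In A549 cells 2 of 7 with enough reads were called higher (CDH1 and KRT19), and in HCC827 cells 0 of 9 were called higher and 3 lower (KRT8, KRT18 and SFTPB), with sums of 5846 and 6630 CPM (reads scaled to the library total) in the A549 pair and 4404 and 7727 in the HCC827 pair. A list of 10 hepatocyte markers summed to 13.8 CPM in A549-myr-AKT1 and 1.70 in A549-vector, and to 9.25 and 3.37 in the HCC827 pair. A list of 10 leukocyte and macrophage markers summed to 31.0 and 1.43, and to 8.52 and 4.36. Of the latter, C1QA, C1QB and FCGR3A were at 0 reads everywhere, PTPRC had at most 7 reads, and CD14 held most of the sum in A549-myr-AKT1. Of the hepatocyte markers, G6PC1 was at 0 reads everywhere and APOB had at most 1 read. Called higher were 4 of the 5 hepatocyte and 3 of the 3 leukocyte markers with enough reads in A549 cells, and 1 of 3 and 1 of 3 in HCC827 cells. Of those called in A549 cells, ALB, TTR, CD68 and LYZ had 2, 0, 2 and 3 reads in A549-vector, and AHSG, TAT and CD14 had 34, 12 and 40. A list of 10 fibroblast markers, with COL1A2 at 0 reads everywhere, summed to 79.8 and 24.5 CPM in the A549 pair and 17.5 and 4.39 in the HCC827 pair. Of these, 4 of 6 (COL1A1, COL3A1, LUM and THY1) and 2 of 2 (ACTA2 and COL1A1) were called higher. Beside these marker counts, 14.2% of all genes with enough reads were called higher and 9.49% lower in A549 cells. The shares in HCC827 cells were 13.0% and 12.3%. The libraries are of cultured lines that the paper states were authenticated by short tandem repeat profiling, so the marker sums are given as RNA levels of these cultures. In bulk RNA, a change in all cells and a change in some of them cannot be told apart. Whether the marker differences bear on the differences below was not tested.

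Most of the list was higher with myr-AKT1 in either line. In A549 cells, 28 of the 34 genes had at least 20 reads in the pair, and 22 of these were called higher and 0 lower. Over all 18819 genes with as many reads, 14.2% were called higher and 9.49% lower. In HCC827 cells 26 genes had enough reads, of which 18 were called higher and 2 lower, against 13.0% and 12.3% of 17470 genes. The median log2 ratio of these genes was 2.77 in A549 and 2.29 in HCC827 cells, where the median of all genes was -0.04 and -0.05. Since this comparison chose the list, the shares are printed beside each other and nothing is read from their difference. With a mean value of at least 50 required, 14 genes were called higher in A549 cells, a rule for which the share of all genes is not given. CRP, A2M, HAMP and ORM2 had fewer than 20 reads in each pair. The log2 ratios nearest to the threshold were 1.06 for CD59, called in A549 cells, and 0.97 for CD55 in HCC827 cells and -0.97 for CLU in A549 cells, which were not called.

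**Figure D1:**
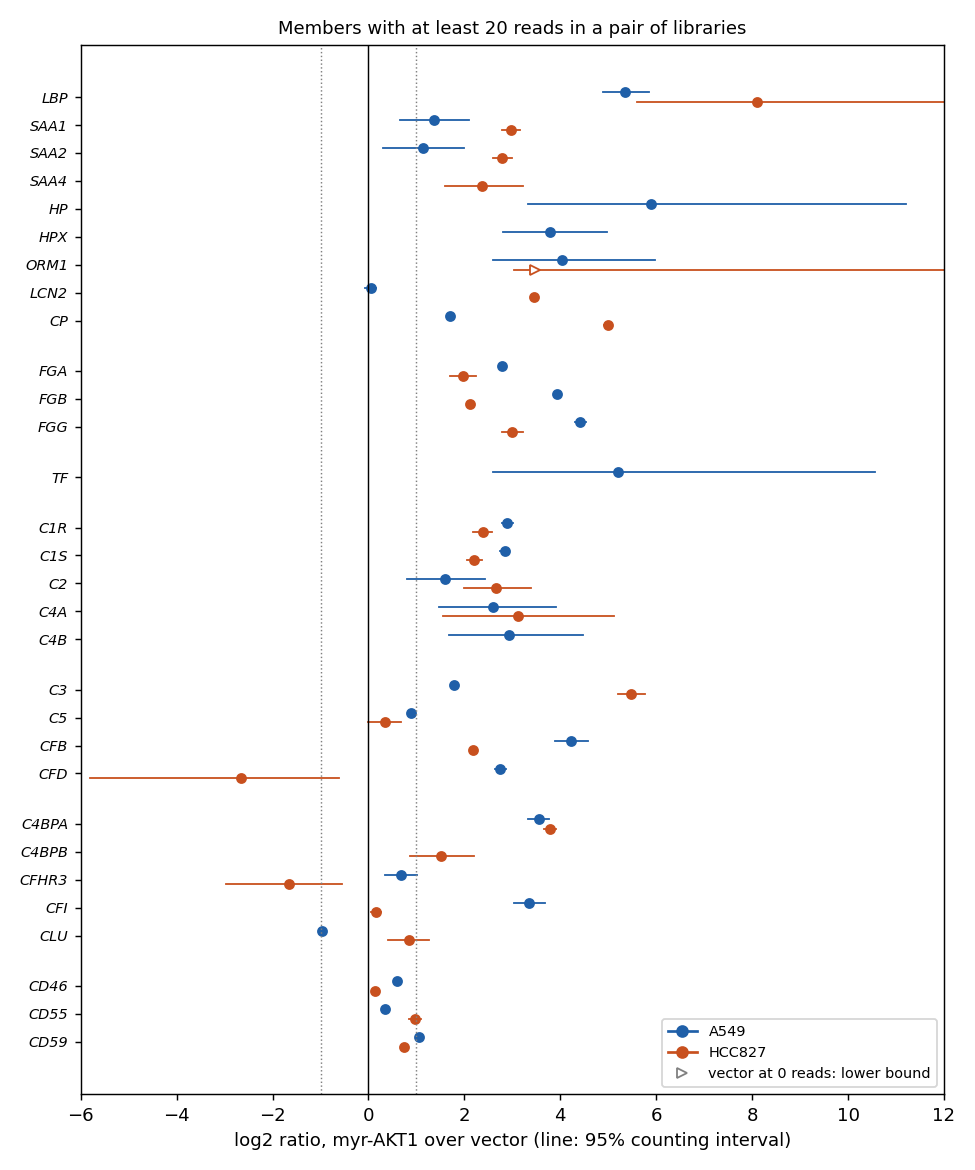
Log2 ratio of normalised counts, myr-AKT1 over vector, for each gene of the list with at least 20 reads in a pair, with 95% counting intervals as lines, A549 in blue and HCC827 in orange. Most points lie right of the dotted line at 1 in both lines, with LBP highest in HCC827 (8.11), and CFD and CFHR3 lie left of -1 in HCC827 only.

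Levels of different genes were compared as RPKM, the recovered reads scaled by merged exon length and library total. The length merges all annotated exons of a gene, so the order of genes at near levels depends on the annotation. The genes of the list together took 0.824% of the reads of A549-myr-AKT1 and 0.260% of those of A549-vector, and 0.888% and 0.138% in the HCC827 pair. In A549-myr-AKT1 the highest levels were those of FGB (436.7 RPKM), FGA (240.6), ceruloplasmin CP (222.8) and FGG (139). In A549-vector the order began with CLU (102.7 RPKM), CP (67.7) and FGA (34.3). In A549 cells FGB thus headed the list with myr-AKT1 and clusterin with vector. In HCC827-myr-AKT1, lipocalin LCN2 stood at 2994 RPKM, place 3 among all genes, followed by CP (183.5), FGB (180) and C4BPA (123). In HCC827-vector LCN2 was again the highest, at 258.3 RPKM, ahead of FGB (39.0) and CD46 (25.98). Without LCN2, the list took 0.410% and 0.0968% of the reads of the HCC827 libraries.

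**Figure D2:**
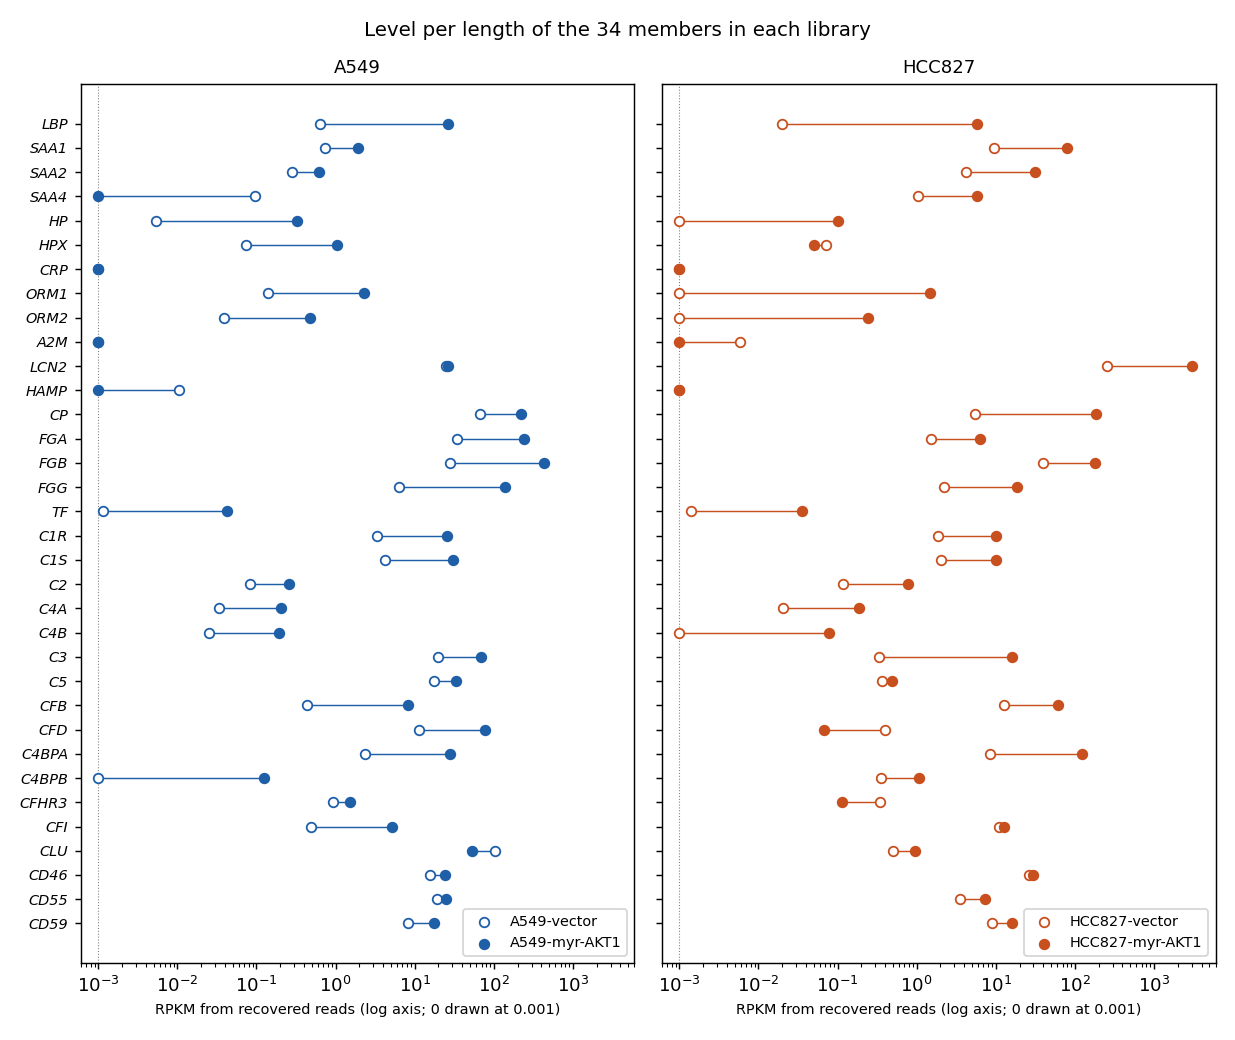
RPKM on a log axis for the 34 genes, with open circles for vector and filled circles for myr-AKT1, A549 on the left and HCC827 on the right, and 0 drawn at 0.001. Levels span from 0 for CRP in every library to 2994 for LCN2 in HCC827-myr-AKT1, and the filled circle lies right of the open one for most genes.

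RefSeq promoter windows of GRCh38.p14, the 250 bases before an annotated start, were matched to 21 of the 34 genes and searched on both strands for letters bound by the factors that drive this response. The letters were TTCNNNGAA for STAT factors, TTGCNNAA for C/EBP factors and GGGNNNNTCC for NF-κB. The STAT letters were found for 6 of the 21 genes (C1R, C4BPB, CD59, CFB, FGA and HAMP), and for 8.09% of all 27305 genes with a window. The C/EBP letters were found for 8 (C1R, CD59, FGA, FGB, HPX, LCN2, SAA4 and TF) and for 11.03% of all genes. The NF-κB letters were found for 3 (CFB, CFD and LCN2) and for 23.1% of all genes. The windows of FGA and FGB are printed whole, since these genes reached the highest levels in A549-myr-AKT1 and lie in the same locus with different letters, and shorter stretches are shown for LCN2, C1R and CFB, where more than 1 kind of match or a gene called higher in both lines was seen. All are written from 5′ to 3′ on the strand of the gene, with the matches in capitals. A match is a description of these letters and no evidence of binding.
FGA, chr4:154590743-154590992, minus strand: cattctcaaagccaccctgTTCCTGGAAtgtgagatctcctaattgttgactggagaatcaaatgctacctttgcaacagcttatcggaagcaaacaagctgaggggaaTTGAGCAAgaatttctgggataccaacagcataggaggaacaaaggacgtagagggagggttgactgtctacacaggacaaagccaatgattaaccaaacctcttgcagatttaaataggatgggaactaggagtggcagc
FGB, chr4:154562761-154563010, plus strand: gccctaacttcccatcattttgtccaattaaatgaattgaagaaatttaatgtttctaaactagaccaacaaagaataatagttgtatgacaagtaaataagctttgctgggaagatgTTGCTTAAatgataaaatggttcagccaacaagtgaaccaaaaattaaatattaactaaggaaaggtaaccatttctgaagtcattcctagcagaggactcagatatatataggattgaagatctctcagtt
LCN2 NF-κB match, chr9:128149268-128149296, plus strand: cagcactccGGGAATGTCCCtcactctcc
LCN2 C/EBP match, chr9:128149299-128149328, plus strand: gtccctctgtcTTGCCCAAtcctgaccagg
C1R STAT match, chr12:7091961-7091989, minus strand: gccagtcctaTTCCTGGAAggggagggga
CFB NF-κB and STAT matches, chr6:31945983-31946011, plus strand: GGGGCCCTCCcgcttggatgTTCCGGGAA
The capitals of LCN2 in the NF-κB stretch are a pair of overlapping matches on opposite strands. The C1R stretch comes from the window 7091894 to 7092143, which also holds a C/EBP match, at -167 to -160, that is not printed. The window of another C1R start, 7092446 to 7092695, holds a C/EBP match only. The STAT letters of FGA and C1R were the same 9 bases, TTCCTGGAA, at -231 to -223 and at -86 to -78 from their starts.

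Of the positive acute-phase plasma proteins, LBP had the largest ratio in HCC827 cells and was among the largest in A549 cells. LBP binds bacterial lipopolysaccharide and hands it to CD14, and its gene lies on chromosome 20 from 38346482 to 38377013. It had 1390.2 normalised counts with myr-AKT1 and 34.1 with vector in A549 cells (1214 and 39 reads), and 219 and 0.795 in HCC827 cells (174 reads and 1 read). The log2 ratio was 5.35 [4.89 to 5.85], place 51 of 18819 genes, and 8.11 [5.61 to 13.4], place 5 of 17470. The vector level was near the detection limit in HCC827 cells, and the wide interval there comes from that 1 read.

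The serum amyloid A genes, whose products ride on high-density lipoprotein, were expressed mainly in HCC827 cells. SAA1 (chromosome 11, 18266260 to 18269977) had 58.4 normalised counts with myr-AKT1 and 22.7 with vector in A549 cells, and 1713 and 219 in HCC827 cells. The log2 ratios of SAA1 were 1.36 [0.65 to 2.10] and 2.96 [2.78 to 3.16]. Its near-identical neighbour SAA2 had 40.1 against 18.3 and 1426 against 206 normalised counts, with log2 ratios of 1.13 [0.31 to 1.98] and 2.79 [2.60 to 2.99]. Reads of such copies may be assigned to either gene, so the sum was taken as well, and it had log2 ratios of 1.26 [0.73 to 1.81] and 2.88 [2.75 to 3.02]. SAA1 held 59.3%, 55.3%, 54.6% and 51.6% of the summed reads in the A549 libraries (myr-AKT1, vector) and the HCC827 libraries in the same order, and the exact binomial intervals of all 4 shares overlapped. SAA4, the constitutive member of the family, had 0 and 2 reads in A549 cells and 74.2 against 14.3 normalised counts in HCC827 cells, a log2 ratio of 2.38 [1.59 to 3.22].

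LCN2, which takes up bacterial siderophores and so withholds iron, had unlike ratios in the 2 lines. With 1 library per condition, this and the other differences between the lines were not tested. It had 1209 normalised counts with myr-AKT1 and 1174 with vector in A549 cells, a log2 ratio of 0.04 with an interval of -0.07 to 0.16 that includes 0. In HCC827 cells it had 98129 against 8948, a log2 ratio of 3.46 [3.43 to 3.48]. LCN2 alone took more reads of HCC827-myr-AKT1 than the rest of the list together, and its promoter stretches with the C/EBP and NF-κB letters are printed above.

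CP, the copper-carrying ferroxidase of plasma, was abundant in 3 of the 4 libraries. Its normalised counts were 45445 with myr-AKT1 and 14014 with vector in A549 cells, and 26647 and 837 in HCC827 cells. The log2 ratios were 1.70 [1.67 to 1.72] and 4.99 [4.90 to 5.08]. HCC827-vector was the low library.

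The remaining plasma proteins of this group rested on few reads. ORM1, an orosomucoid that binds drugs and steroids, had 50 reads with myr-AKT1 and 4 with vector in A549 cells, and 21 and 0 reads in HCC827 cells. This is a log2 ratio of 4.03 [2.59 to 5.97] in A549 cells. In HCC827 cells, with the vector library set to a floor of 3 reads, ORM1 was 11.1-fold higher. Its counting interval there began at 8.25-fold. Its near-identical copy ORM2 had 9, 1, 3 and 0 reads, and the sum of both had a log2 ratio of 3.95 [2.65 to 5.63] in A549 cells. In HCC827 cells, with the same floor, the sum had a log2 ratio of 3.66, with a counting interval from 3.25 upward. HP, the haemoglobin scavenger haptoglobin, had 45 reads against 1 in A549 cells, a log2 ratio of 5.88 [3.33 to 11.2], and 9 against 0 in HCC827 cells. Its paralogue HPR had 5 reads in A549-myr-AKT1 and 0 elsewhere. HPX, hemopexin, which binds free haem, had 95 reads against 9 in A549 cells, a log2 ratio of 3.79 [2.81 to 4.96], and only 3 and 7 in HCC827 cells. CRP had 0 reads in all 4 libraries, and A2M and HAMP had at most 1.

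Transferrin (TF), the iron carrier, is a protein whose plasma level falls in the acute phase. It had 28 reads with myr-AKT1 and 1 with vector in A549 cells, and 15 and 1 in HCC827 cells. The A549 log2 ratio was 5.20 [2.60 to 10.6], in the direction of the positive acute-phase genes, and the HCC827 pair had fewer than 20 reads. Its locus overlaps SRPRB on the same strand, which had 1171 to 1528 reads per library.

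The 3 fibrinogen chains, which assemble into the clotting protein in equal numbers, were called higher in both lines. They lie next to each other on chromosome 4 between 154563011 and 154612967, FGB on the plus strand and FGA and FGG on the minus strand. FGB, the beta chain, had 55107 normalised counts with myr-AKT1 and 3600 with vector in A549 cells, and 16169 and 3703 in HCC827 cells. Its log2 ratios were 3.94 [3.89 to 3.98] and 2.13 [2.08 to 2.18]. FGA, the alpha chain, had 27187 against 3938 and 508 against 130.3, with log2 ratios of 2.79 [2.74 to 2.83] and 1.96 [1.70 to 2.23]. The alpha chain had the smallest ratio of the 3 in either line. FGG, the gamma chain, had 14438 against 674 and 1361 against 171, with log2 ratios of 4.42 [4.32 to 4.53] and 2.99 [2.78 to 3.21]. The gamma chain had the largest ratio in either line, and none of these intervals within a line overlapped another, except those of FGA and FGB in HCC827 cells.

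The chains were not present in equal amounts as mRNA, a comparison chosen after the values were seen. Per length, FGA, FGB and FGG made up 49.9%, 40.8% and 9.29% of the summed level in A549-vector, and 29.5%, 53.5% and 17.03% in A549-myr-AKT1. In HCC827 cells they made up 3.59%, 91.3% and 5.12% with vector, and 3.09%, 87.9% and 8.995% with myr-AKT1. FGB was therefore 25.5 times as high as FGA in HCC827-vector and 28.5 times in HCC827-myr-AKT1, whereas in A549-vector FGA was the higher, 1.22 times FGB. The A549-vector reads were 4509 for FGA and 4122 for FGB, over merged exon lengths of 3917 and 4374 bases. With lengths this dependent on the annotation, the order of FGA and FGB in A549-vector is not settled. The FGA window printed above holds the STAT and C/EBP letters, and the FGB window holds the C/EBP letters alone.

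**Figure D3:**
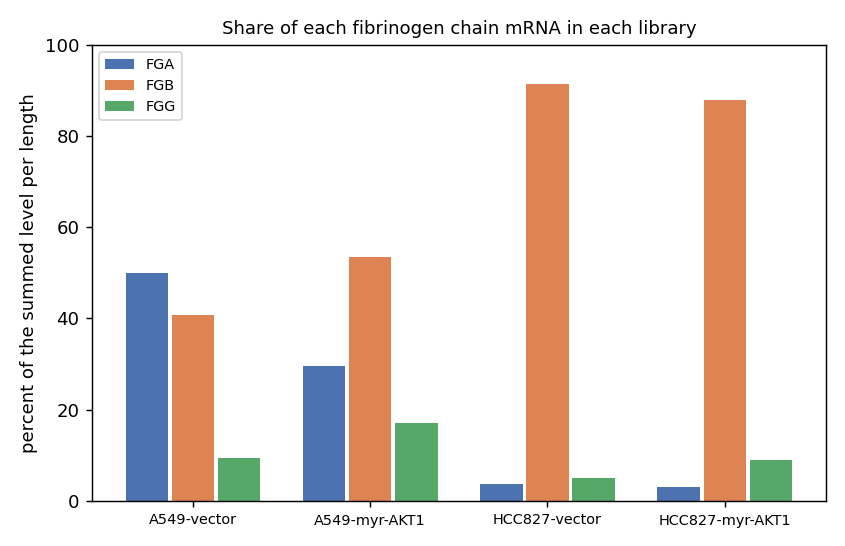
Percent of the summed RPKM of the 3 fibrinogen chains in each library, FGA in blue, FGB in orange and FGG in green. FGB holds 87.9% and 91.3% in the HCC827 libraries, and FGA holds 49.9% in A549-vector and 29.5% in A549-myr-AKT1.

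Among the components of the classical pathway, the proteases C1R and C1S had close ratios to each other in each line. C1R (chromosome 12, 7080214 to 7092540, minus strand) had 4230.1 normalised counts with myr-AKT1 and 568 with vector in A549 cells, and 1208 and 232 in HCC827 cells. Its log2 ratios were 2.90 [2.77 to 3.02] and 2.38 [2.19 to 2.57]. C1S, the protease that C1R activates and that cleaves C4 and C2, had 7306 against 1018 and 1694 against 368, with log2 ratios of 2.84 [2.75 to 2.93] and 2.20 [2.05 to 2.36]. C1R made up 35.8% to 41.6% of the reads of the pair in the 4 libraries, which is 0.798 to 1.02 times the C1S level per length. The subunits of C1q, which C1R and C1S join, were not detected, with C1QA, C1QB and C1QC at 0 reads in all 4 libraries.

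C2 and C4, which form the C3 convertase of this pathway, were low in every library. C2 had 52.7 normalised counts with myr-AKT1 and 17.5 with vector in A549 cells, and 116 and 18.3 in HCC827 cells, with log2 ratios of 1.59 [0.81 to 2.43] and 2.66 [1.99 to 3.39]. The near-identical genes C4A and C4B were added up, giving 72 against 14 reads in A549 cells and 31 against 4 in HCC827 cells. The sum had log2 ratios of 2.75 [1.92 to 3.70] and 3.62 [2.12 to 5.58], and C4A alone had 2.60 [1.47 to 3.91] and 3.12 [1.56 to 5.12]. C4B alone had 35 reads against 6, a log2 ratio of 2.94 [1.67 to 4.48], in A549 cells and 9 against 0 in HCC827 cells. All of these stood under 1 RPKM, so the classical pathway genes of higher level were C1R and C1S.

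C3, the protein on which all complement pathways converge, was called higher in both lines, most in HCC827 cells. It lies on chromosome 19 from 6677704 to 6730562 and had 23361 normalised counts with myr-AKT1 and 6754 with vector in A549 cells, and 3794 and 85.0 in HCC827 cells. The log2 ratios were 1.79 [1.75 to 1.83] and 5.48 [5.20 to 5.77], the latter at place 33 of 17470 genes. C5, which starts the terminal pathway, was called in neither line, with 16288 against 8791 normalised counts in A549 cells and 167 against 133 in HCC827 cells. Its log2 ratios were 0.89 [0.85 to 0.93] and 0.33 [-0.01 to 0.67].

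The proteases of the alternative pathway parted between the lines. Factor B (CFB), which lies on chromosome 6 from 31945650 to 31952086 and overlaps the end of C2 on the same strand, had 1249 against 67.2 normalised counts in A549 cells and 6599 against 1447 in HCC827 cells. Its log2 ratios were 4.22 [3.88 to 4.57] and 2.19 [2.11 to 2.27], and its promoter stretch holds the NF-κB letters at -112 to -103 and the STAT letters at -92 to -84 from the start. Factor D (CFD), the protease that cleaves bound factor B, had 4029 against 599 in A549 cells, a log2 ratio of 2.75 [2.63 to 2.87]. In HCC827 cells CFD had 2 reads against 20 with vector, a log2 ratio of -2.66 [-5.80 to -0.62]. CFD was the only gene of the list called in opposite directions, 1 of 24 with enough reads in both pairs, against 1.36% of 15781 genes. The HCC827 value rests on 22 reads in all, and CFD did not reach a mean value of 50 there.

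Of the soluble regulators, C4BPA, the alpha chain of the C4b-binding protein, was called higher in both lines. It lies on chromosome 1 from 207104233 to 207144972 and had 2012 normalised counts with myr-AKT1 and 172 with vector in A549 cells, and 6239 and 451 in HCC827 cells. The log2 ratios were 3.55 [3.33 to 3.77] and 3.79 [3.66 to 3.92], and these intervals overlap. The beta chain C4BPB, which binds protein S, had 10 and 0 reads in A549 cells and 56 and 31 in HCC827 cells, a log2 ratio of 1.52 [0.86 to 2.20] in the latter. Hence C4BPA held 94.8% to 100% of the reads of the pair.

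The other soluble regulators did not go together. CFI, the protease that inactivates C3b and C4b, had 783 against 76.8 normalised counts in A549 cells, a log2 ratio of 3.35 [3.03 to 3.69]. In HCC827 cells CFI had 1394 against 1252, a log2 ratio of 0.16 [0.04 to 0.27]. The myr-AKT1 level of CFI in A549 cells thus stayed under both HCC827 levels per length, at 5.10 RPKM against 12.8 and 10.8. CFHR3, another soluble regulator, had 187 against 117 in A549 cells, a log2 ratio of 0.67 [0.34 to 1.01], and 10.1 against 31.8 in HCC827 cells, a log2 ratio of -1.66 [-2.97 to -0.54]. Clusterin (CLU), a chaperone that also blocks the terminal complex, had 9633 against 18893 in A549 cells, a log2 ratio of -0.97 [-1.01 to -0.94]. In HCC827 cells CLU had 123 against 69.1, a log2 ratio of 0.83 [0.40 to 1.27]. CFHR3 and CLU thus had ratios on opposite sides of 0 in the 2 lines.

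The membrane regulators, which protect host cells, were expressed in all libraries, and only CD59 in A549 cells was called. CD46 had log2 ratios of 0.59 in A549 and 0.13 in HCC827 cells, and CD55, which breaks up C3 convertases, had 0.35 and 0.97. CD59, which blocks the membrane attack complex, had 5335 against 2565 normalised counts in A549 cells, a log2 ratio of 1.06 [0.99 to 1.12], and 3469 against 2065 in HCC827 cells, a log2 ratio of 0.75 [0.67 to 0.83]. The level per length of the 3 genes lay between 3.53 and 30.01 RPKM over the 4 libraries.

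Over both lines, 24 genes had enough reads in both pairs, and 15 of them were called higher in both and 0 lower in both. The corresponding shares of all 15781 genes were 4.28% and 4.0%. With a log2 ratio past 2 required, 9 were called higher in both, and with a mean value of at least 50 required, 10. The shares of all genes under these rules are not given. The 15 genes were CP, LBP, SAA1, SAA2, ORM1, FGA, FGB, FGG, C1R, C1S, C2, C4A, C3, CFB and C4BPA. The order of the ratios was not the same in the 2 lines. In A549 cells HP, LBP and TF had the largest ratios, HP and TF against 1 vector read each, and with 1 added to each value the order was LBP (5.31), HP (4.81), FGG (4.42), CFB (4.1955) and TF (4.14). In HCC827 cells LBP, C3 and CP had the largest. In a fit over all 4 libraries with cell line as a block, which leaves 1 residual degree of freedom, edgeR's quasi-likelihood test called 8 of 29 genes higher (C1R, C1S, C4BPA, CFB, FGA, FGB, FGG and LBP), where it called 1.01% of 19314 genes higher. This fit uses the comparison that chose the list, and is given as a description.

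**Figure D4:**
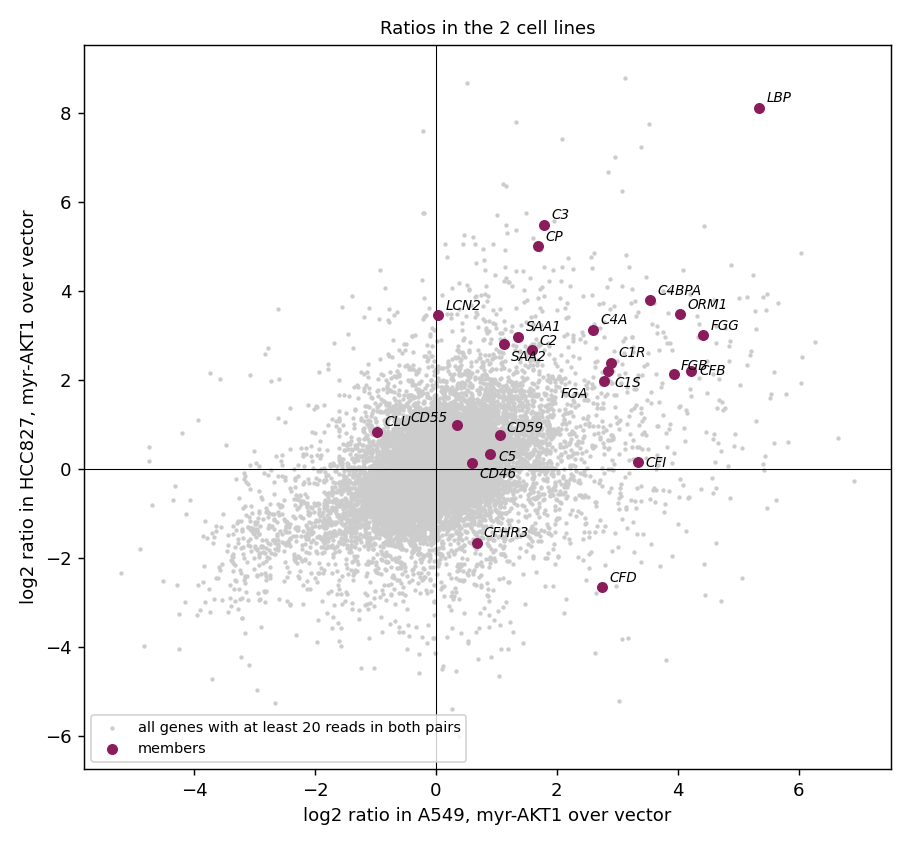
Log2 ratio in A549 (x axis) against log2 ratio in HCC827 (y axis) for all genes with at least 20 reads in both pairs (grey) and for the 24 genes of the list (purple), with ORM1 drawn at its lower bound on the y axis. The named genes lie mostly in the upper right, with LCN2 near 0 on the x axis, CFI near 0 on the y axis and CFD and CFHR3 below 0 on the y axis.

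Before myr-AKT1, the lines already differed in which genes of the list they expressed. This comparison shares its libraries with those above. On CPM, since the size factors hold only within a line, 11 of 24 genes were called higher in A549-vector and 8 were called higher in HCC827-vector, against 20.9% and 19.7% of 19237 genes. The genes higher in A549-vector were CP, C3, C5, LBP, FGA, FGG, C1S, CD55, CFD, CFHR3 and CLU. Those higher in HCC827-vector were SAA1, SAA2, SAA4, LCN2, CFB, CFI, C4BPA and C4BPB. CLU differed most of the list, with 645 CPM in A549-vector and 3.19 in HCC827-vector, a log2 ratio of 7.66 [7.36 to 7.98]. CFB differed most in the other direction, with 2.296 and 66.7 CPM and a log2 ratio of -4.86 [-5.21 to -4.53]. FGB and C1R were called in neither direction, with log2 ratios of -0.47 [-0.53 to -0.41] and 0.86 [0.66 to 1.06].

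Other genes of the same pathways were counted from 3 lists, which were also chosen with earlier results known. The shares of all genes called higher and lower, to be set beside their counts, were 14.2% and 9.49% in A549 cells and 13.0% and 12.3% in HCC827 cells. Of 19 inputs of the acute-phase response (cytokines, receptors and transcription factors), 18 had enough reads in A549 cells, with 4 called higher and 1 lower, and 17 in HCC827 cells, with 7 higher and 1 lower. IL6 had 59 reads with myr-AKT1 and 6 with vector in A549 cells and 121 and 68 in HCC827 cells, with log2 ratios of 3.69 [2.48 to 5.19] and 1.49 [1.05 to 1.94]. The IL-1 genes had larger ratios than IL6 in either line, although in A549 cells the intervals of IL1B and IL6 overlap. IL1B had 203 against 6 and 5630 against 590 reads, with log2 ratios of 5.47 [4.32 to 6.93] and 3.92 [3.79 to 4.04], and IL1A had 5.41 and 3.85. CEBPB, a C/EBP factor that acts on many acute-phase promoters, had 2565 against 1002 and 1368 against 516 normalised counts, with log2 ratios of 1.36 and 1.41. STAT3 had log2 ratios of 0.52 and 1.28, and CEBPD had 0.29 and 1.17. SOCS3, the feedback inhibitor that STAT3 induces, had 610.4 against 544 and 758 against 675 normalised counts, with log2 ratios of 0.17 [-0.0036 to 0.34] and 0.17 [0.01 to 0.32]. LIF, another cytokine of the IL-6 family, was called in opposite directions, at -1.17 in A549 and 1.28 in HCC827 cells.

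Of 27 further acute-phase genes, 17 had enough reads in A549 cells, with 13 called higher and 1 lower, and 14 in HCC827 cells, with 8 higher and 2 lower. The median log2 ratios were 2.62 and 2.20. The calprotectin subunits S100A8 and S100A9, which neutrophils and stressed epithelia make, were among them. S100A8 had 20 and 0 reads in A549 cells, 8.74-fold higher with the vector library set to the floor of 3 reads. In HCC827 cells it had 558 and 2 reads, a log2 ratio of 8.79 [6.93 to 11.8] at place 2 of 17470 genes. S100A9 had log2 ratios of 3.14 [2.72 to 3.60] and 4.79 [4.68 to 4.92]. The protease inhibitor SERPINA3 had 2.62 [1.74 to 3.61] and 4.86 [3.95 to 5.94], and CD14, to which LBP hands lipopolysaccharide, had 4.49 [4.03 to 4.99] and 2.43 [1.69 to 3.23]. RBP4, the retinol carrier, is another protein whose plasma level falls in the acute phase. It had 762 against 118 reads and 48 against 1, with log2 ratios of 3.08 [2.80 to 3.37] and 6.25 [3.70 to 11.6]. The counts and medians of this list thus mix proteins that rise and fall in plasma. Called higher in A549 cells alone were also the hepatocyte markers ALB (60 against 2 reads), TTR (110 against 0) and AHSG (84 against 34). The pentraxin PTX3 was called in opposite directions, at -1.55 [-3.13 to -0.21] and 3.64 [2.57 to 4.91].

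Of 42 further complement genes, 16 had enough reads in A549 cells, with 14 called higher and 1 lower (CPN1), and a median log2 ratio of 2.91. In HCC827 cells only 5 had enough reads, with C5AR1 called higher and CR2 lower. No gene of these 42 was called in both lines. The terminal components C6 and C7, an example chosen after the values were seen, had 37 and 51 reads in A549-myr-AKT1 and 0 in the other 3 libraries.

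To see whether the chromosomal surroundings of these genes also differed, the nearest protein-coding genes, up to 2 on each side and within 500 kilobases, were read out. This was chosen after the values of the list were seen. Of 91 such neighbours outside the pathway lists, 68 had enough reads in A549 cells, with 10 called higher (14.7%) and 7 lower, and 64 in HCC827 cells, with 11 higher (17.2%) and 6 lower. The 11 include the SAA2-SAA4 readthrough gene, which overlaps SAA2 and SAA4 of the list. The shares of all genes called higher were 14.2% and 13.0%, close to those of the neighbours. Their median log2 ratios were 0.01 and 0.03. The medians of the list, 2.77 and 2.29, come from the ratios that chose it, so nothing is read from the contrast with its neighbours. PLRG1, 12611 bases before FGB, had log2 ratios of -0.44 in A549 and -0.26 in HCC827 cells. LRAT, on the other side of the locus, was called higher in A549 cells, with 80 against 48 reads and a log2 ratio of 1.13 [0.59 to 1.68]. In the complement cluster of chromosome 6, SLC44A4 before C2 had log2 ratios of 3.24 and 2.95, and TNXB after C4B had 2.88 and 1.96.

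**Figure D5:**
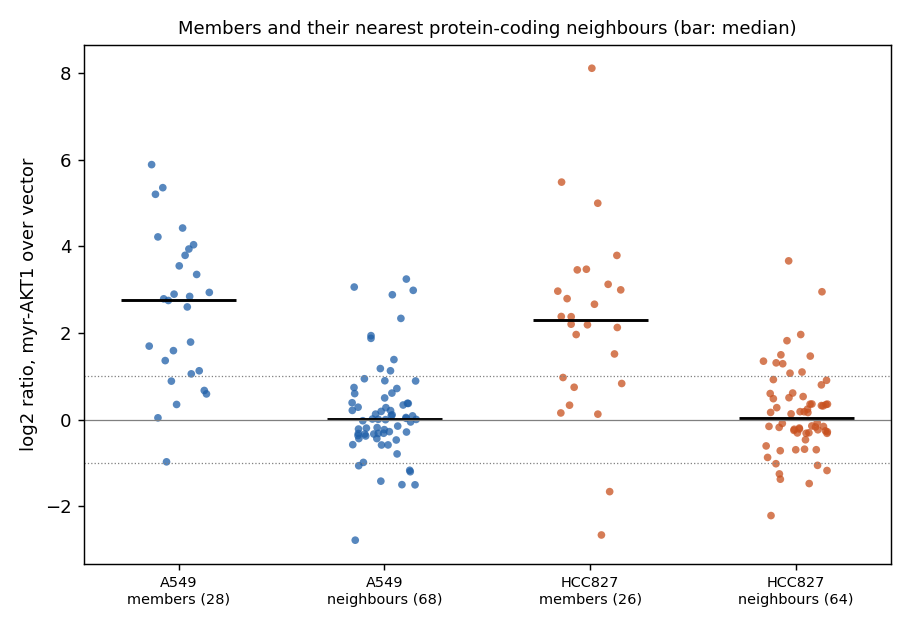
Log2 ratio, myr-AKT1 over vector, of each gene of the list and of its protein-coding neighbours outside the pathway lists, by line, with the median as a bar and dotted lines at 1 and -1. The bars lie at 2.77 and 2.29 for the list and at 0.01 and 0.03 for the neighbours, and the list had been chosen on these ratios.

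Some loci share bases with another gene, and the strand setting used in counting is not given in the sources used here. HP, CP, C1S, C5 and CFD overlap TXNL4B, HPS3, LPCAT3, CNTRL and MED16 on the opposite strand. These partners had 206 to 3603 reads per library, and the ratio of TXNL4B, with 327 against 839 reads in A549 cells, ran against that of HP. On the same strand, C1R overlaps C1RL, C2 overlaps CFB, C4A overlaps STK19 and C3 overlaps GPR108. The SAA2-SAA4 readthrough gene took 24 reads in HCC827-myr-AKT1 and at most 2 elsewhere.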

How the data were processed

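Libraries were made from total RNA, after removal of ribosomal RNA according to the labels and after poly(A) selection according to the study's Methods, and 1 library per condition was sequenced. After trimming, the authors aligned reads to hg38 with Bowtie2 2.3.5 and counted genes with HTSeq 0.11.2, per the labels and Methods. The Methods name RPKM, but the signal the authors deposited is a read count divided by a size factor per library (0.873 and 1.15 for myr-AKT1 and vector in A549 cells, 0.795 and 1.26 in HCC827 cells). Dividing by the value of 1 read gave whole reads, within 0.001, for 100% of detected genes in both myr-AKT1 libraries and for 99.9963% and 99.9961% in the vector libraries. Bowtie2 does not split reads over introns, so reads on exon junctions may be missing, alike in all libraries. Recovered reads were 25190760, 33530317, 16322183 and 27312465, in the same order.

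Identifiers were matched to GENCODE 44, where 60261 of 60558 matched. Within a line, log2 ratios used the deposited values without a pseudocount, and 95% Clopper-Pearson intervals used the recovered reads. Intervals and floors cover counting error only. A library at 0 reads was set to a floor of 3 reads. The lower end of the counting interval can lie below the ratio so obtained. This floor had been planned for up to 3 reads, but libraries with 1 to 3 reads were kept with their interval, and the planned floor was run as an alternative. The lines were compared with each other on total reads. RPKM were computed here from recovered reads and merged exon lengths. The gene list and the pathway lists were chosen with earlier results of these data known. All 34 genes were accounted for, with values in full for those called in both lines or in opposite directions, the 3 largest and smallest ratios per line and near-identical pairs, and for pathway genes called in both lines, at most 6 per list. The input genes IL6, STAT3, CEBPB, CEBPD and SOCS3 were always given. Some results are not reported here.

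No test was made within a line. Over all 4 libraries with cell line as a block, edgeR 4.0.16 on the recovered reads called 196 genes higher and 228 lower of 19314 (Benjamini-Hochberg adjusted p under 0.05), DESeq2 1.42.0 called 616 and 516, and limma 3.58.1 on log2(value + 1) called 250 and 335, with 1 residual degree of freedom. The ratio and fit code was tested on simulated data. Alternatives were TMM, total reads, size factors from all 4 libraries together, adding 1 before the logarithm, other filters on low values and a log2 threshold of 2. Software was R 4.3.3, Python 3.11.15, numpy 2.4.6, scipy 1.17.1, pandas 2.3.3 and matplotlib 3.10.9.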

Additional observations from a re-analysis of the deposited data

Results flagged for a closer look

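For 3 genes the sign of the log2 ratio, myr-AKT1 over vector, was opposite in A549 and HCC827, and each counting interval lay on its own side of 0. These differences were not tested. CFD was at 2.75 in A549 and at -2.66 in HCC827, where it had 2 reads against 20. CFHR3 was at 0.67 in A549 and at -1.66 in HCC827, where it had 8 reads against 40. CLU was at -0.97 in A549, from 8412 reads against 21635, and at 0.83 in HCC827, from 98 against 87.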

How the results depend on the processing

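The genes of the list called higher in A549 cells (22), in HCC827 cells (18) and in both lines (15) kept their number within 1.5 times under TMM, total reads, size factors from all 4 libraries together, adding 1 before the logarithm, at least 1 read in both libraries, and 3 reads or fewer set to 3, an alternative added after the data were seen. Requiring a mean value of at least 50 left 14 genes higher in A549 cells (22 before), 14 in HCC827 cells (18 before) and 10 in both lines (15 before). It left 0 lower in HCC827 cells (2 before) and 0 opposite (1 before), by removing genes. A log2 threshold of 2 left 9 higher in both lines and 1 lower in HCC827 cells. The shares of all genes under these stricter rules are not given, so nothing is read from these counts. In fits of all 4 libraries that treat the cell line as a block, edgeR called 8 genes higher, and DESeq2 and limma 13 each, against 15 by the rule per line. The genes were not the same. DESeq2 also called CD59, and limma HP and TF, which are not among the 15. Of the 15, ORM1, C2 and C4A were not called by DESeq2, and SAA1, SAA2, C2 and C4A were not called by limma. Of all 19314 genes tested, edgeR called 1.01% higher, DESeq2 3.19% and limma 1.29%. The edgeR fit differs from the rule in kind, and the cause was not tested. No log2 ratio of the genes of the list with enough reads changed its sign under TMM, total reads, common size factors or the pseudocount. These fits pair myr-AKT1 with vector within each line, and the labels carry no replicate numbers for any other pairing. Genes with under about 20 reads in a pair, among them CRP, HAMP, A2M and ORM2, could not be compared at this depth, and a ratio against 1 read, as for LBP in HCC827 cells, spans orders of magnitude.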
